A study of Mus musculus with 9 samples.

Results

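The genes described here are 44 mouse interferon-stimulated genes, genes whose transcription is known to increase when a cell responds to interferon. They were chosen by name, and all 44 are among the 22396 genes of the deposited counts. The 44 were grouped by the known role of their products into 10 lists, from transcription factors to chemokines.

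The measurement is RNA immunoprecipitation followed by sequencing. RNA bound to FLAG-tagged RIG-I was recovered from B16F10 cells, a mouse melanoma line labelled B16 and wild type in genotype, grown in DMEM with FBS. The cells carried 1 of 3 short hairpin RNAs delivered by lentivirus: the control hairpin shCtr, or shOSGEP#1 or shOSGEP#2, which target Osgep, the enzyme of the KEOPS complex that adds t6A to transfer RNAs. Each group has 3 libraries from separate experiments, and the study's question was which RNAs RIG-I binds when OSGEP is depleted.

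Several features limit these groups as a model. RIG-I was a tagged construct expressed stably in the cells, and the counts of its gene, Ddx58, do not separate the construct from the cell's own transcript. No library of total cellular RNA is part of these counts, so more of an RNA in the cell and more of it bound to RIG-I cannot be told apart in any value below, and neither can fewer cells and less RNA per cell. The library kit keeps strand information, but how strand was used in the counting is not stated, so reads from a gene overlapping on the opposite strand may be included.

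RIG-I is a cytoplasmic receptor for RNA whose activation leads to secretion of type I interferon. Interferon binds its receptor at the cell surface, kinases at the receptor activate transcription factors, and the complex that contains STAT2 and IRF9 binds the interferon-stimulated response element in the promoters of many of the genes described here. Their products block virus entry, translation and replication, recruit lymphocytes, or feed back on the pathway itself, and in tumour cells the same program is known for its link to recognition by T cells.

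Total counts per library were 40333037, 47750758 and 41805753 in shCtr, 34551436, 50224299 and 30697653 in shOSGEP#1, and 25460689, 568995 and 14914731 in shOSGEP#2, each time in the order of replicates 1, 2 and 3. Replicate 2 of shOSGEP#2 is far shallower than the other 8 libraries and is shown apart throughout. Values are given as counts per 1000000 counts of the library's total (CPM). A limit of 3 counts equals 5.27 CPM in the shallow library and 0.0597 to 0.201 CPM in the others, which covers counting error only.

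The target gene Osgep (ENSMUSG00000006289) was at 19.1, 19.9 and 15.5 CPM in shCtr, at 3.76, 1.15 and 1.53 CPM in shOSGEP#1, and at 0.0786 and 2.88 CPM in replicates 1 and 3 of shOSGEP#2. Every library with an Osgep hairpin was below every shCtr library. The log2 fold change was −3.10 ± 0.73 (SE) for shOSGEP#1 against shCtr, with an adjusted p of 0.0128, and −3.84 ± 0.93 for shOSGEP#2 against shCtr, with an adjusted p of 0.0150, in edgeR's quasi-likelihood test (Benjamini-Hochberg adjusted). Both missed the threshold used here, an adjusted p under 0.01. Both passed with no expression filter (0.000639 and 0.000838), shOSGEP#1 also with only the compared groups fitted (0.000973), and shOSGEP#2 also by DESeq2 (0.00924). Across the alternatives the shOSGEP#2 log2 fold change ranged from −7.86 (without shOSGEP#2 replicate 3) to −2.78. Without shOSGEP#2 replicate 1 or 3 the shOSGEP#1 adjusted p was 0.000964 or 0.000920, and without shOSGEP#2 replicate 3 the shOSGEP#2 adjusted p was 0.00134.

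Ddx58 (ENSMUSG00000040296), which encodes RIG-I, was at 179.9, 184 and 278 CPM in shCtr, at 232, 216 and 327 CPM in shOSGEP#1, and at 402 and 429 CPM in shOSGEP#2. The shOSGEP#1 libraries overlap the control libraries, and the shOSGEP#2 libraries lie above them. Against shCtr the log2 fold change was 0.26 ± 0.21 (SE) with shOSGEP#1 (adjusted p 0.427) and 0.86 ± 0.23 with shOSGEP#2 (adjusted p 0.0239) by edgeR's quasi-likelihood test (Benjamini-Hochberg adjusted). The shOSGEP#2 value passed by DESeq2 (0.00262), with no filter (0.00727) and without shCtr replicate 3 (0.00898).

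The label of the cells was checked with 10 genes of the melanocyte lineage, all of which had counts. Their summed level was 9160, 8377 and 11150 CPM in shCtr, 10825, 14092 and 12776 CPM in shOSGEP#1, and 3818, 2624 and 4735 CPM in shOSGEP#2 (replicates 1, 2 and 3). By mean CPM over the 8 deeper libraries the most abundant was Gpnmb. Tyrp1 was above it in shCtr (means of 2298 and 2266 CPM) and in shOSGEP#2 (1421 and 1168 CPM). Of the 10, 8 were lower in shOSGEP#2 than in shCtr at an adjusted p under 0.01, where 3.89% of all genes tested were. With shOSGEP#1, Tyr was lower (log2 fold change −2.59, adjusted p 0.000560) and Gpnmb higher (1.20, adjusted p 0.000944) than in shCtr at the same threshold. So the RNA carries the lineage of the label, at a lower level with shOSGEP#2. The part of this difference in the shOSGEP#2 values below was not tested.

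Of the markers of other cell types, the 16 leukocyte markers summed to between 2.92 and 5.95 CPM in shCtr, 4.80 and 5.82 CPM in shOSGEP#1, and to 1.57 and 5.23 CPM in replicates 1 and 3 of shOSGEP#2. By mean CPM over the 8 deeper libraries their most abundant gene was Cd68, with at most 4.69 CPM. In shOSGEP#1 Lyz2 was above it (means of 2.56 and 0.851 CPM). Cd8a, Nkg7, Itgam and Tyrobp had no count in any of the 9 libraries. The 10 fibroblast and endothelial markers summed to 4.64, 6.79 and 8.30 CPM in shCtr, 6.51, 3.80 and 9.45 CPM in shOSGEP#1, and 16.6 and 42.6 CPM in shOSGEP#2. Col1a2 was the most abundant of them and Lum was at 0 throughout. The sum was higher in shOSGEP#2 than in the other groups. Named after their values were seen, Col1a1 and Col1a2 were called between the hairpins, higher with shOSGEP#2 by log2 fold changes of 2.66 (adjusted p 0.00750) and 2.85 (adjusted p 0.00948), and neither was called against shCtr (0.0250 and 0.0249 with shOSGEP#2). The part of these markers in the results was not tested.

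The members together were abundant enough to be read well in the 8 deeper libraries. Mean level in shCtr was at least 1 CPM for 40 of the 44, at least 10 CPM for 29 and at least 100 CPM for 4. Of the 44, 43 passed edgeR's filter on low counts and were tested. The exception is Ifitm1, an interferon-induced membrane protein, with 0.203 CPM in shOSGEP#1 replicate 1 and no count elsewhere.

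Levels of different genes are compared per kilobase of exon. On that scale the control libraries were led by Ifitm3 with 414 CPM per kb, then Ifitm2 with 187, Bst2 with 92.4, Isg15 with 78.8 and Lgals3bp with 57.3. Ifitm3, Ifitm2 and Bst2 encode membrane proteins that hold viruses at entry or at release. With SDs of 81.3, 52.9 and 18.6 CPM per kb (n = 3), these first 3 do not overlap by their SDs, while Bst2 and Isg15 (SD 1.42) do. At the other end were Zbp1 with 0.417, Oas3 with 0.129, Ifi44 with 0.126 and Ddx60 with 0.0541 CPM per kb. Without scaling to length, 7 of the first 10 are the same genes.

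Some of these levels are shared between genes of like sequence. Of the 31-base stretches of its transcripts, Oas1a shares 68.8% with other genes (most with Oas1g), Ifit3 61.8% (most with Ifit3b), Ifit3b 55.2% (most with Ifit3) and Ifitm2 55.5% (most with Gm45717, which overlaps it on the same strand). Reads from such stretches can be assigned to either gene. Dtx3l and Parp9 overlap each other on opposite strands, and 5.90% of the exon bases of Cxcl10 lie opposite Art3.

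In the sum over all 44 members, the libraries were at 1570, 1581 and 2050 CPM in shCtr, at 2006, 2254 and 3422 CPM in shOSGEP#1, and at 1970 and 2371 CPM in shOSGEP#2, with 1274 CPM in its shallow replicate. The group means were 1734 ± 274 (SD, n = 3), 2561 ± 756 (n = 3) and 2170 ± 284 CPM (2 libraries). The ranges overlap with each hairpin, since shCtr replicate 3 lies above shOSGEP#1 replicate 1 and shOSGEP#2 replicate 1. The sum is weighted to a few genes, with Ifitm3 alone making up 15.3% of it.

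A feature that runs across the groups is replicate 3. In shCtr, 31 of the 43 tested members had their highest CPM in replicate 3, against 37.4% of all genes tested. Within shOSGEP#1 it was 36 of 43, against 39.1%. Between the deeper pair of shOSGEP#2 libraries, 31 of 43 were higher in replicate 3, against 48.0%. Measured from the shCtr mean, the members' median log2 difference was −0.17, −0.08 and 0.21 in the shCtr libraries, 0.12, 0.19 and 0.75 in those of shOSGEP#1, and 0.29 and 0.40 in replicates 1 and 3 of shOSGEP#2. Replicate 3 of shOSGEP#1 stands highest, while replicates 1 and 2 of shOSGEP#1 lie between the shCtr libraries' median of replicate 2 and that of replicate 3. What replicate 3 shares across groups is not given in the labels, and its part in the results was not tested.

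Each hairpin was then compared with shCtr, and the hairpins with each other, using edgeR on 8 libraries, without shOSGEP#2 replicate 2. The comparisons with shCtr share the same 3 control libraries, so their values are given side by side and are not independent of each other. A gene is said to have risen or fallen, or to be called, where its adjusted p over all 12744 genes tested is under 0.01.

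With shOSGEP#1, 8 of the 43 tested members were called, where 9.67% of all genes tested were. Of these, 7 rose (background 5.00%), namely Parp14, Ifit1, Ifit3, Oasl2, Cxcl10, Xaf1 and Lgals3bp, and 1 fell (background 4.67%), Parp12. The median log2 fold change over the tested members was 0.27, with 32 of 43 above 0, beside 0.00 and 50.1% over all genes tested. At an unadjusted p under 0.05 there were 21 members, beside 4450 of the 12744 genes. The call count rests on single libraries: it was 1 without shCtr replicate 1, 0 without shCtr replicate 2, 4 without shOSGEP#1 replicate 2 and 3 without shOSGEP#1 replicate 3. Of all genes, 1232 were called as reported, and 427, 318, 429 and 724 without these libraries. The median was 0.14 without shOSGEP#1 replicate 3 and 0.53 without shCtr replicate 3.

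With shOSGEP#2, 3 of the 43 tested members were called, beside 9.55% of all genes tested. All 3 rose (background 5.66%): Parp14, Oasl2 and Gbp2. No tested member fell by edgeR (background 3.89%) or by DESeq2, which called 5 members, each of them higher, and 2346 of the 12744 genes. There were 11 members at an unadjusted p under 0.05, beside 4541 of the 12744 genes. The median log2 fold change was 0.33, with 32 of 43 above 0, beside −0.06 and 46.6% over all genes. With all 9 libraries the sign of the median was reversed, with −0.10 and 17 of 43 above 0 by edgeR, and −0.12 and 16 of 43 by DESeq2. The medians over all genes were −0.37 and −0.39 there, so the members' medians stayed above them. The share of all genes above 0 was not counted in these fits. Without shCtr replicate 1, shCtr replicate 2 or shOSGEP#2 replicate 3 the count was 1 (584, 518 and 631 of all genes), and without shOSGEP#2 replicate 1 it was 5 (1248), beside 1217 genes as reported.

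Between the hairpins, 3 of the 43 tested members were called, beside 10.8% of all genes. Parp12 and Mx1 were higher with shOSGEP#2 (background 6.23%), and Cxcl10 was lower (background 4.56%). The median was −0.08 with 21 of 43 above 0, beside −0.04 and 47.5% over all genes. The count was 1 without shOSGEP#1 replicate 2, where 821 of all genes were called (1375 as reported), and the median was 0.16 without shOSGEP#1 replicate 3. DESeq2 called 10 members, 4 higher and 6 lower, beside 2556 of the 12744 genes. With no filter 9 were called, 4 higher and 5 lower, beside 1803 of 15710 genes.

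When all 9 libraries were fitted, edgeR called 0 members and 0 genes (0%) in each of the 3 comparisons, with 1, 3 and 6 members and 620, 1240 and 1325 of 12337 genes at an unadjusted p under 0.05. DESeq2 on the 9 libraries called 0, 2 and 0 members, and 135, 368 and 433 genes. The common dispersion was 0.0692 with 8 libraries and 0.420 with 9. Every call below therefore holds for the fit without the shallow library.

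Counting members whose libraries do not overlap gives another view that needs no fit. With shOSGEP#1, 17 of the 43 had every library above every shCtr library, where 23.1% of all genes tested did, and 4 had every library below (Parp12, Oas1a, Oasl1 and Mx1), where 22.2% did. With the 2 deeper shOSGEP#2 libraries, 16 lay above, beside 28.7%, and 1 lay below (Oas3), beside 23.6%. Members above the control libraries were more frequent than the background share with each hairpin, by less with shOSGEP#2, and members below were less frequent. This is a description with no test, and members that vary together between libraries are not separate observations.

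**Figure D1:**
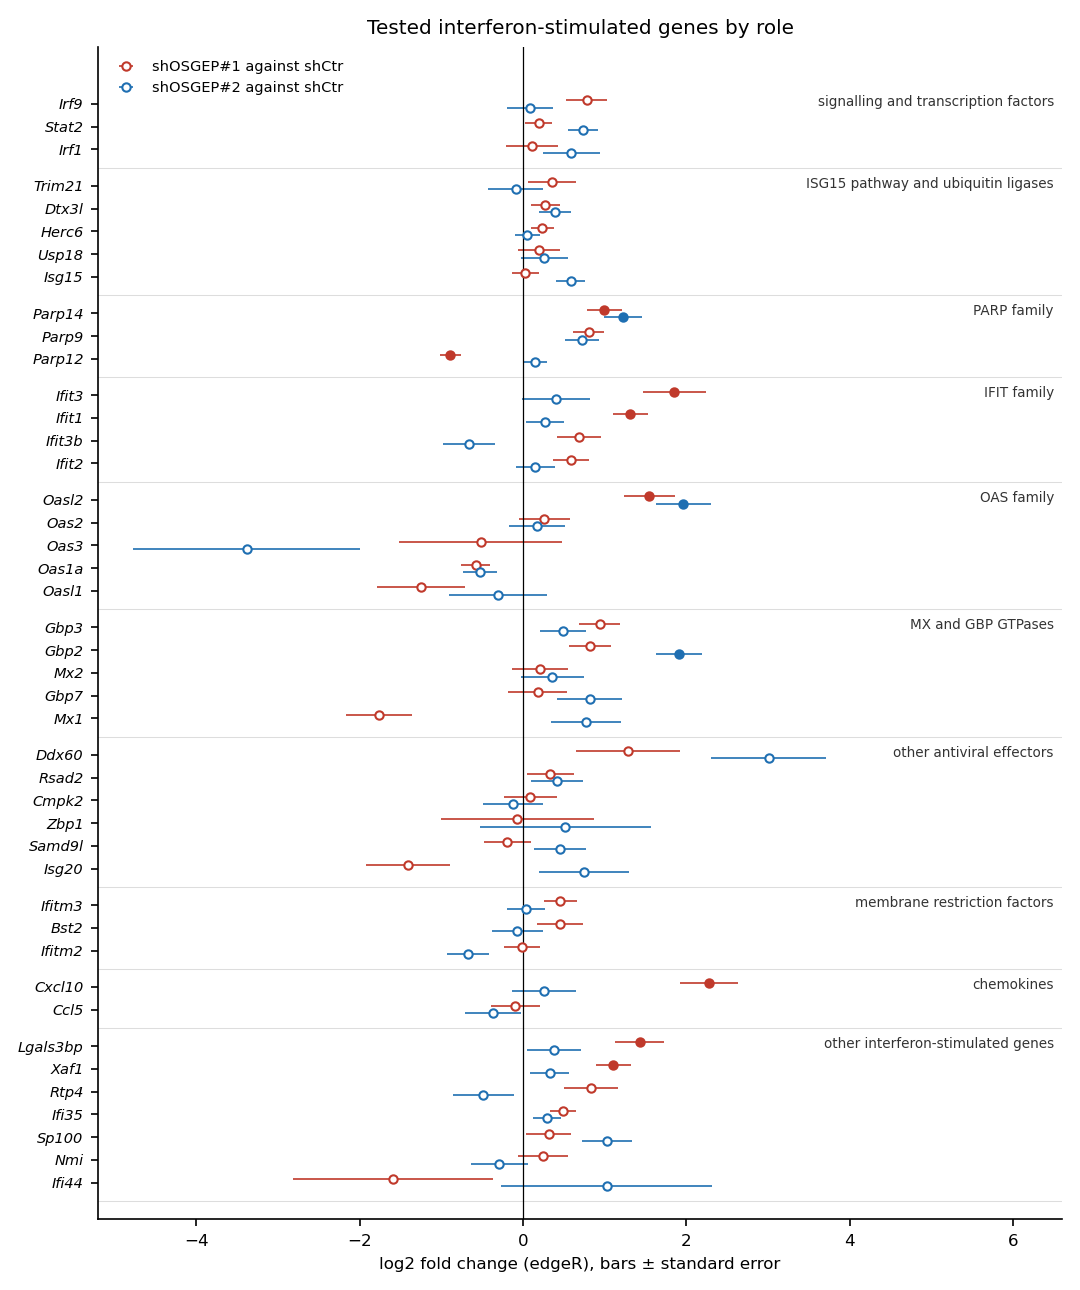
Log2 fold changes of the 43 tested interferon-stimulated genes against shCtr in edgeR, by role, with shOSGEP#1 in red, shOSGEP#2 in blue and bars of 1 standard error; filled points have an adjusted p under 0.01. With shOSGEP#1, 7 members rose and Parp12 fell; with shOSGEP#2, Parp14, Oasl2 and Gbp2 rose.

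Among the signalling and transcription factors, the most abundant was Irf9, the DNA-binding partner of STAT2. Irf9 was at 39.2, 38.5 and 48.8 CPM in shCtr, 67.1, 63.0 and 88.9 CPM in shOSGEP#1, and 62.8 and 31.8 CPM in shOSGEP#2. All shOSGEP#1 libraries lie above shCtr, while those of shOSGEP#2 fall on either side. The log2 fold changes were 0.78 ± 0.25 (SE) with shOSGEP#1, at an adjusted p of 0.0453, and 0.09 ± 0.28 with shOSGEP#2, at 0.851, in edgeR's quasi-likelihood test (Benjamini-Hochberg adjusted). Neither was called. Leaving out shOSGEP#2 replicate 1 turned the shOSGEP#2 value to −0.53, and gave a call between the hairpins (−1.31, adjusted p 0.00750). Stat2, the partner of IRF9, had log2 fold changes of 0.19 and 0.73 (adjusted p 0.0165, or 0.00193 by DESeq2 and 0.00819 without TMM), and Irf1, an activator induced by interferon gamma, of 0.11 and 0.59, with shOSGEP#1 and shOSGEP#2 in that order.

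The list of the ISG15 pathway and ubiquitin ligases was led by Isg15, a ubiquitin-like protein that is attached to other proteins and also secreted. Isg15 was at 58.6, 59.4 and 60.8 CPM in shCtr, 55.6, 54.0 and 74.5 CPM in shOSGEP#1, and 83.6 and 108 CPM in shOSGEP#2. Libraries of shOSGEP#1 lie on both sides of the narrow control range, and those of shOSGEP#2 above it. By edgeR's quasi-likelihood test (Benjamini-Hochberg adjusted) the log2 fold change was 0.03 ± 0.16 (SE; adjusted p 0.921) with shOSGEP#1, or −0.14 without its replicate 3, and 0.58 ± 0.18 (adjusted p 0.0422) with shOSGEP#2. The other 4 members, Usp18 (which removes ISG15), Herc6 (which attaches it) and the ubiquitin ligases Trim21 and Dtx3l, ranged from 0.19 to 0.36 with shOSGEP#1 and from −0.09 to 0.39 with shOSGEP#2.

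PARP family members attach ADP-ribose to proteins, and Parp9 works in a complex with Dtx3l. Parp14 (ENSMUSG00000034422) was at 33.7, 38.9 and 45.4 CPM in shCtr, 65.4, 65.5 and 107 CPM in shOSGEP#1, and 87.4 and 109 CPM in shOSGEP#2. Each library with an Osgep hairpin, the shallow one at 0 aside, exceeded each control library. Parp14 rose with both hairpins, by a log2 fold change of 1.00 ± 0.21 (SE; adjusted p 0.00792) and 1.22 ± 0.23 (adjusted p 0.00446) in edgeR's quasi-likelihood test (Benjamini-Hochberg adjusted). The shOSGEP#1 call was lost, with an adjusted p of 0.0430, 0.0394, 0.0140, 0.0144 and 0.0196, without shCtr replicates 1, 2 or 3 or shOSGEP#1 replicates 2 or 3 in turn. The shOSGEP#2 call was lost at 0.0226, 0.0212 and 0.0345 without shCtr replicate 1, shCtr replicate 2 or shOSGEP#2 replicate 3.

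Parp12 (ENSMUSG00000038507), an ADP-ribosyltransferase that inhibits virus replication, was at 108, 111.8 and 103 CPM in shCtr, 63.2, 57.6 and 55.2 CPM in shOSGEP#1, and 126 and 129 CPM in replicates 1 and 3 of shOSGEP#2. The libraries of each group lie close together, with shOSGEP#1 below and shOSGEP#2 above the controls. It fell with shOSGEP#1, by a log2 fold change of −0.89 ± 0.13 (SE; adjusted p 0.00117), while the shOSGEP#2 value of 0.15 ± 0.14 was not called (adjusted p 0.479) in edgeR's quasi-likelihood test (Benjamini-Hochberg adjusted). Tested directly, the hairpins differed by 1.04 ± 0.14 (adjusted p 0.000574), a call kept without each of the 8 libraries in turn. The fall with shOSGEP#1 was lost only without shCtr replicate 2, at an adjusted p of 0.0101. The shallow library held 403 counts of Parp12, or 708 CPM, far above every other library.

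Parp9 was at 26.6, 24.9 and 38.0 CPM in shCtr, 47.5, 49.7 and 60.7 CPM in shOSGEP#1, and 51.9 and 53.5 CPM in shOSGEP#2. The shallow library at 0 aside, each library with an Osgep hairpin lay above each control. The log2 fold changes, 0.80 ± 0.19 (SE; adjusted p 0.0128) and 0.73 ± 0.21 (adjusted p 0.0316), missed the threshold in edgeR's quasi-likelihood test (Benjamini-Hochberg adjusted). The shOSGEP#1 value passed by DESeq2 (0.00108), with no filter (0.00501) and without shCtr replicate 3 (0.00548).

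IFIT proteins bind RNA with foreign 5′ ends and block its translation. Ifit1 (ENSMUSG00000034459), which reads the cap, was at 32.1, 37.1 and 40.0 CPM in shCtr, 70.9, 78.8 and 124 CPM in shOSGEP#1, and 49.7 and 43.9 CPM in shOSGEP#2. Every shOSGEP#1 library exceeded the others, and the shOSGEP#2 libraries lay just above the controls. It rose with shOSGEP#1 by a log2 fold change of 1.31 ± 0.22 (SE; adjusted p 0.00213), against 0.27 ± 0.24 with shOSGEP#2 (adjusted p 0.440) in edgeR's quasi-likelihood test (Benjamini-Hochberg adjusted). The direct difference between the hairpins was −1.04 ± 0.25, at an adjusted p of 0.0117, which passed without shOSGEP#1 replicate 1 (0.00868), by DESeq2 (0.000532), with no filter (0.00247) and with the filter of at least 10 counts in each library (0.00993). The rise was lost without shCtr replicate 1 (0.0147) or shCtr replicate 2 (0.0140).

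Ifit3 (ENSMUSG00000074896) was at 23.7, 28.1 and 41.0 CPM in shCtr, 76.1, 68.5 and 194 CPM in shOSGEP#1, and 33.9 and 54.1 CPM in shOSGEP#2. Replicate 3 of shOSGEP#1 was far above replicates 1 and 2, although these too exceeded all controls. The log2 fold change was 1.85 ± 0.38 (SE; adjusted p 0.00659) with shOSGEP#1, a rise, and 0.40 ± 0.41 (adjusted p 0.515) with shOSGEP#2, by edgeR's quasi-likelihood test (Benjamini-Hochberg adjusted). Between hairpins it was −1.45 ± 0.44 (adjusted p 0.0347), which passed by DESeq2 (0.00201) and with no filter (0.00465). That difference ranged from −2.07 to −0.80 across the alternatives. The rise was lost without shCtr replicate 1 (0.0347), shCtr replicate 2 (0.0354), shCtr replicate 3 (0.0117) or shOSGEP#1 replicate 3 (0.0133, where the log2 fold change was 1.21).

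The other IFIT genes were not called. Ifit2, the most abundant of the family, was at 76.5, 80.4 and 90.2 CPM in shCtr, 111, 100.4 and 164 CPM in shOSGEP#1, and 74.5 and 122 CPM in shOSGEP#2, which places only the shOSGEP#1 libraries wholly above the controls. Its log2 fold changes were 0.59 ± 0.22 and 0.15 ± 0.24 (SE), the latter −0.21 without shOSGEP#2 replicate 3. Ifit3b, a close copy of Ifit3, had log2 fold changes of 0.69 with shOSGEP#1 and −0.66 with shOSGEP#2, and passed between the hairpins by DESeq2 (−1.34, adjusted p 0.000635) and with no filter (−1.35, adjusted p 0.00272). Over the 4 IFIT genes the median log2 fold change was 1.00 with shOSGEP#1, 0.21 with shOSGEP#2 and −1.20 between the hairpins, where all 4 were below 0.

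OAS enzymes sense double-stranded RNA and make the messenger that activates RNase L, and the OASL proteins are related to them in sequence. Oasl2 (ENSMUSG00000029561) was at 4.29, 4.63 and 7.03 CPM in shCtr, 12.2, 13.0 and 21.9 CPM in shOSGEP#1, and 17.0 and 27.7 CPM in shOSGEP#2. Again no library with an Osgep hairpin overlapped a control, the shallow one at 0 aside. Oasl2 rose with both, by log2 fold changes of 1.55 ± 0.31 (SE; adjusted p 0.00587) and 1.96 ± 0.34 (adjusted p 0.00244) in edgeR's quasi-likelihood test (Benjamini-Hochberg adjusted). With shOSGEP#1 the call was lost without shCtr replicate 1 (0.0318), shCtr replicate 2 (0.0351), shOSGEP#1 replicate 2 (0.0145) or shOSGEP#1 replicate 3 (0.0208). With shOSGEP#2 it was lost without shCtr replicate 1 (0.0139), shCtr replicate 2 (0.0152) or shOSGEP#2 replicate 3 (0.0199).

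The other 4 OAS genes were not called, and their directions differed. Oas1a, the most abundant of the list, was at 40.4, 48.4 and 53.4 CPM in shCtr, 28.9, 30.6 and 36.6 CPM in shOSGEP#1, and 29.7 and 40.8 CPM in shOSGEP#2. All shOSGEP#1 libraries were below the controls, and shOSGEP#2 replicate 3 overlapped them. The log2 fold changes, −0.58 ± 0.18 (SE; adjusted p 0.0409) and −0.53 ± 0.20 (adjusted p 0.0901), were not called in edgeR's quasi-likelihood test (Benjamini-Hochberg adjusted). Oasl1, which restrains translation of the interferon regulator IRF7, had log2 fold changes of −1.25 and −0.30, Oas2 of 0.26 and 0.18, and Oas3 of −0.52 and −3.38. Oas3 was sparse, with at most 1.46 CPM in any library and 4 counts over the deeper shOSGEP#2 libraries. The family's median was −0.52 with shOSGEP#1 and −0.30 with shOSGEP#2.

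MX proteins and GBPs are families of large GTPases, the former known to act on virus nucleocapsids and the latter on membranes around microbes. Whether Mx1 makes a working protein in these cells was not examined. Gbp2 (ENSMUSG00000028270) was at 6.67, 6.53 and 7.97 CPM in shCtr, 10.97, 10.1 and 16.7 CPM in shOSGEP#1, and 22.3 and 34.7 CPM in shOSGEP#2. The groups form 3 steps with no overlap between them. By edgeR's quasi-likelihood test (Benjamini-Hochberg adjusted) it rose with shOSGEP#2, by a log2 fold change of 1.91 ± 0.28 (SE; adjusted p 0.00104), while 0.82 ± 0.26 with shOSGEP#1 (adjusted p 0.0412) and 1.09 ± 0.28 between the hairpins (adjusted p 0.0173) were not called. The call with shOSGEP#2 was kept without each of the 8 libraries in turn. The difference between the hairpins passed without shOSGEP#1 replicate 3 (0.00686) or shOSGEP#2 replicate 1 (0.00970), by DESeq2 (0.00369) and with no filter (0.00896).

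Mx1 (ENSMUSG00000000386) was at 4.17, 6.43 and 9.28 CPM in shCtr, 2.55, 1.99 and 1.37 CPM in shOSGEP#1, and 8.48 and 15.9 CPM in shOSGEP#2. Here shOSGEP#1 was wholly below the controls, and shOSGEP#2 overlapped them from above. Against shCtr neither hairpin was called, with log2 fold changes of −1.76 ± 0.40 (SE; adjusted p 0.0109) and 0.77 ± 0.43 (adjusted p 0.225), but the hairpins differed by 2.53 ± 0.44 (adjusted p 0.00225) in edgeR's quasi-likelihood test (Benjamini-Hochberg adjusted). That call was lost without shOSGEP#1 replicate 2 (0.0112) or shOSGEP#2 replicate 3 (0.0163). The shOSGEP#1 value passed without shOSGEP#2 replicate 1 (0.00664) or replicate 3 (0.00720), by DESeq2 (0.000320), with other filters (0.00287 with none) and with only the compared groups fitted (0.00830).

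Gbp3 was the list's most abundant gene by mean CPM over the 8 deeper libraries, with Gbp2 above it in shOSGEP#2 (means of 28.5 and 19.4 CPM). Gbp3 was at 11.4, 10.2 and 17.0 CPM in shCtr, 23.6, 19.7 and 31.5 CPM in shOSGEP#1, and 17.6 and 21.2 CPM in shOSGEP#2, all of these above the controls. Its log2 fold changes of 0.94 ± 0.25 (SE; adjusted p 0.0213) and 0.49 ± 0.28 (adjusted p 0.230) were not called by edgeR's quasi-likelihood test (Benjamini-Hochberg adjusted). The shOSGEP#1 value passed by DESeq2 (0.00386) and with no filter (0.00959). Mx2, annotated as a polymorphic pseudogene, had log2 fold changes of 0.21 and 0.36, and Gbp7 of 0.18 and 0.82.

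Other antiviral effectors act mostly on nucleotides and nucleic acids. The most abundant by mean CPM over the 8 deeper libraries was Rsad2 (viperin), which makes a chain-terminating nucleotide. Samd9l was above it in shCtr (means of 74.1 and 68.8 CPM) and in shOSGEP#2 (108.7 and 98.9 CPM). Rsad2 was at 60.0, 70.4 and 76.1 CPM in shCtr, 58.1, 78.5 and 126 CPM in shOSGEP#1, and 66.5 and 131 CPM in shOSGEP#2. Both Osgep groups overlap the controls and are spread by their replicate 3. The log2 fold changes were 0.33 ± 0.29 and 0.42 ± 0.32 (SE), or −0.023 without shOSGEP#1 replicate 3 and −0.12 without shOSGEP#2 replicate 3. Ddx60, a helicase linked to RIG-I signalling, rested on 14 to 90 counts a library at 0.347, 0.440 and 0.622 CPM in shCtr, 1.27, 0.796 and 1.43 CPM in shOSGEP#1, and 2.199 and 6.03 CPM in shOSGEP#2. Its libraries do not overlap between groups, the shallow one at 0 aside. The log2 fold changes of 1.29 ± 0.64 and 3.01 ± 0.71 (SE) had adjusted p of 0.178 and 0.0124 in edgeR's quasi-likelihood test (Benjamini-Hochberg adjusted). The shOSGEP#2 value passed by DESeq2 on 8 libraries (0.000188) and on 9 (0.00926), with the filter of at least 10 counts in each library (0.00234) and without shOSGEP#2 replicate 1 (0.00461). Cmpk2, Isg20, Zbp1 and Samd9l ranged from −1.40 (Isg20, a nuclease) to 0.09 with shOSGEP#1 and from −0.12 to 0.75 with shOSGEP#2. At an unadjusted p under 0.05 the list had 1, 1 and 2 of its 6 members in the 3 comparisons, beside 4450, 4541 and 4722 of all 12744 genes.

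Membrane restriction factors act where viruses enter or leave the cell. Ifitm3, which stops viruses fusing with endosomes, was at 249.7, 248 and 344 CPM in shCtr, 295, 379.9 and 493 CPM in shOSGEP#1, and 283 and 334 CPM in shOSGEP#2. Groups overlap with each hairpin, by way of shCtr replicate 3. Log2 fold changes were 0.46 ± 0.21 (SE; adjusted p 0.140) and 0.04 ± 0.23 (adjusted p 0.923) in edgeR's quasi-likelihood test (Benjamini-Hochberg adjusted), the latter between −0.052 and 0.22 with 1 library left out. For Bst2 (tetherin) they were 0.45 and −0.07, and for Ifitm2 −0.01 and −0.67.

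The chemokines parted. Cxcl10 (ENSMUSG00000034855), which attracts activated T cells through CXCR3, was at 13.0, 17.4 and 17.1 CPM in shCtr, 47.8, 61.2 and 123 CPM in shOSGEP#1, and 13.5 and 27.5 CPM in shOSGEP#2. All shOSGEP#1 libraries stand above all others, while 1 shOSGEP#2 library lies among the controls and the other above them. It rose with shOSGEP#1 by a log2 fold change of 2.28 ± 0.36 (SE; adjusted p 0.00174), the largest among the tested members in that comparison, but had 0.26 ± 0.39 (adjusted p 0.664) with shOSGEP#2, in edgeR's quasi-likelihood test (Benjamini-Hochberg adjusted). The hairpins differed by −2.02 ± 0.41 (adjusted p 0.00572). The rise was lost without shCtr replicate 1 (0.0118) or shCtr replicate 2 (0.0105).

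The call of Cxcl10 between the hairpins was lost, each time narrowly, without shCtr replicate 2 (0.0106), shCtr replicate 3 (0.01004), shOSGEP#1 replicate 2 (0.01005) or shOSGEP#2 replicate 3 (0.0103), and by more without shOSGEP#2 replicate 1 (0.0370) or with only the 2 hairpin groups fitted (0.0195). Its value against shCtr with shOSGEP#2 was −0.30 without shOSGEP#2 replicate 3. Ccl5, which attracts T cells and monocytes, was at 25.5, 16.9 and 20.9 CPM in shCtr, 20.1, 22.1 and 17.7 CPM in shOSGEP#1, and 9.54 and 25.9 CPM in shOSGEP#2. These ranges overlap, and the log2 fold changes were −0.09 ± 0.30 and −0.37 ± 0.35 (SE).

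In the list of other interferon-stimulated genes, Lgals3bp (ENSMUSG00000033880), a secreted glycoprotein that binds galectins, was at 148, 129.8 and 211 CPM in shCtr, 275, 399.5 and 656 CPM in shOSGEP#1, and 190.2 and 265 CPM in shOSGEP#2. The shOSGEP#1 libraries are wide apart and above the controls, and shOSGEP#2 overlaps them. It rose with shOSGEP#1 by a log2 fold change of 1.43 ± 0.30 (SE; adjusted p 0.00702), with 0.38 ± 0.33 (adjusted p 0.433) for shOSGEP#2 and −1.05 ± 0.34 (adjusted p 0.0451, or 0.00601 by DESeq2) between the hairpins, by edgeR's quasi-likelihood test (Benjamini-Hochberg adjusted). The rise was lost without shCtr replicate 1 (0.0358), shCtr replicate 2 (0.0403), shOSGEP#1 replicate 2 (0.0192) or shOSGEP#1 replicate 3 (0.0206).

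Xaf1 (ENSMUSG00000040483), which binds the apoptosis inhibitor XIAP, was at 13.7, 10.3 and 13.2 CPM in shCtr, 23.1, 24.2 and 33.5 CPM in shOSGEP#1, and 17.8 and 15.3 CPM in shOSGEP#2. Both Osgep groups lie above the controls, shOSGEP#1 by more. The log2 fold change of 1.11 ± 0.21 (SE; adjusted p 0.00492) with shOSGEP#1 was called, and that of 0.33 ± 0.24 (adjusted p 0.351) with shOSGEP#2 was not, in edgeR's quasi-likelihood test (Benjamini-Hochberg adjusted). The call was lost, at 0.0194, 0.0341, 0.0144, 0.0152 and 0.0153, without shCtr replicates 1, 2 or 3 or shOSGEP#1 replicates 2 or 3 in turn. Direct comparison of the hairpins gave −0.78 ± 0.24 (adjusted p 0.0406). Ifi35, Nmi, Ifi44, Rtp4 and Sp100 ranged from −1.59 to 0.83 with shOSGEP#1 and from −0.48 to 1.03 with shOSGEP#2.

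**Figure D2:**
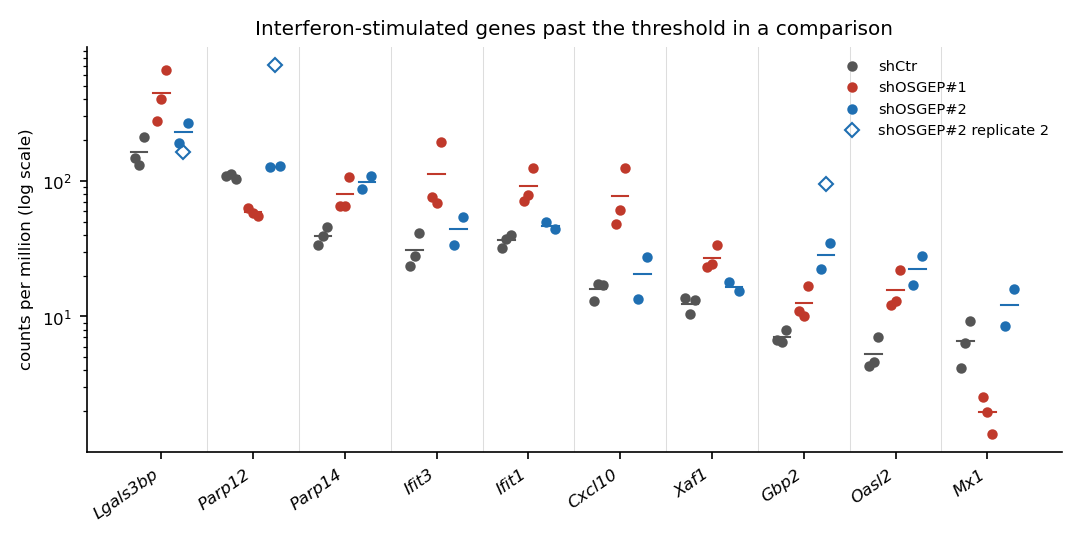
CPM on a log axis for each library of the 10 members called in any comparison, with bars at group means of the libraries fitted and shOSGEP#2 replicate 2 shown as open points where it had counts. Cxcl10, Ifit1 and Ifit3 are highest in shOSGEP#1, Gbp2 is highest in shOSGEP#2, and Parp12 is lowest in shOSGEP#1, at 55.2 to 63.2 CPM.

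The shallow library of shOSGEP#2 shows what its depth allows. It held counts for 8 of the 44 members (Herc6, Parp12, Oas2, Gbp2, Cmpk2, Ccl5, Nmi and Lgals3bp) and none for the other 36. At the mean level of replicates 1 and 3, 28 members would have had at least 10 counts in it, and 22 of these were at 0 (78.6%). Over all genes tested the same was so for 4427 of 8297 (53.4%). Zeros in it are therefore more frequent than its total alone allows, for the members and for genes in general. Herc6 and Lgals3bp lay below the level of replicates 1 and 3, Herc6 with 23 counts where 27.6 would match. The other members with counts lay above that level. Members at 0 include Ifitm3, with 176 counts at the level of the other replicates, while Lgals3bp had 93 counts where 129 would match.

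The wider pathway was read from lists of 130 further genes, of which 98 were tested. Against shCtr, 5 rose and 3 fell with shOSGEP#1 (background 5.00% and 4.67%), and 8 rose and 3 fell with shOSGEP#2 (background 5.66% and 3.89%). Between the hairpins 11 were higher and 4 lower with shOSGEP#2 (background 6.23% and 4.56%). The medians over the 98 were 0.11, 0.41 and 0.34, beside 0.00, −0.06 and −0.04 over all genes. Interferon ligands were almost absent: 18 of 20 had no count in any of the 9 libraries, and Ifnz, the only ligand tested, stayed at or under 0.446 CPM.

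Of the receptors, kinases and STATs, 11 were tested. Il10rb (ENSMUSG00000022969), a receptor chain shared by interferon lambda and IL-10, was at 51.2, 51.5 and 58.1 CPM in shCtr, 135, 164 and 129.9 CPM in shOSGEP#1, and 18.8 and 21.7 CPM in shOSGEP#2. The groups are far apart, on opposite sides of the controls. It rose with shOSGEP#1 (log2 fold change 1.40 ± 0.15, SE; adjusted p 0.000284) and fell with shOSGEP#2 (−1.50 ± 0.17; adjusted p 0.000288), and the hairpins differed by −2.90 ± 0.19 (adjusted p 2.84e-05) in edgeR's quasi-likelihood test (Benjamini-Hochberg adjusted). Further calls in this list, named after their values were seen, were Tyk2, lower with shOSGEP#1 (−1.46), and Stat3, higher with shOSGEP#2 (0.74).

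Further interferon-stimulated genes outside the 44 gave 71 tested genes, with 2 higher and 2 lower in shOSGEP#1, 6 higher and 2 lower in shOSGEP#2, and 9 higher and 2 lower between the hairpins, where 9.67%, 9.55% and 10.8% of all genes were called in either direction. Nlrc5, an activator of MHC class I genes, was at 7.39, 7.10 and 7.22 CPM in shCtr, 7.50, 8.36 and 9.09 CPM in shOSGEP#1, and 30.3 and 30.1 CPM in shOSGEP#2. Only shOSGEP#2 stands clear of the controls by more than their spread. Its log2 fold changes were 0.19 ± 0.19 and 1.97 ± 0.21 (SE), with 1.78 ± 0.21 between the hairpins. Dhx58 (LGP2), a relative of RIG-I, was at 12.1, 12.5 and 10.8 CPM in shCtr, 10.0, 11.03 and 11.4 CPM in shOSGEP#1, and 52.9 and 35.5 CPM in shOSGEP#2, with log2 fold changes of −0.13 ± 0.20, 1.82 ± 0.22 and, between the hairpins, 1.95 ± 0.22. Helz2, a helicase and coactivator, was at 55.1, 57.1 and 61.8 CPM in shCtr, 72.9, 74.0 and 71.2 CPM in shOSGEP#1, and 138 and 149 CPM in shOSGEP#2, with 0.31 ± 0.13, 1.21 ± 0.14 and 0.90 ± 0.14. For these 3 genes the shOSGEP#2 rise and the difference between the hairpins were called, with adjusted p between 0.000215 and 0.00120 in edgeR's quasi-likelihood test (Benjamini-Hochberg adjusted), and the calls were kept without each of the 8 libraries in turn.

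Gca, a calcium-binding protein named grancalcin, and Plscr1, a membrane protein that restricts viruses, complete the pathway genes with the smallest p. Gca was at 14.8, 16.2 and 10.7 CPM in shCtr, 6.57, 2.69 and 3.09 CPM in shOSGEP#1, and 30.5 and 27.0 CPM in shOSGEP#2. Plscr1 was at 60.7, 63.2 and 84.0 CPM in shCtr, 82.9, 81.0 and 93.6 CPM in shOSGEP#1, and 34.5 and 22.4 CPM in shOSGEP#2. The hairpins lie on opposite sides of the controls for Gca, and for Plscr1 shOSGEP#2 alone is clear of them. Gca fell with shOSGEP#1 (−1.77 ± 0.33, SE; adjusted p 0.00408), and its adjusted p was 0.0171, 0.0224, 0.0193 and 0.0177 without shCtr replicates 1 or 2 or shOSGEP#1 replicates 2 or 3, while 0.96 ± 0.35 with shOSGEP#2 was not called (adjusted p 0.0764), in edgeR's quasi-likelihood test (Benjamini-Hochberg adjusted). Plscr1 fell with shOSGEP#2 (−1.37 ± 0.23; adjusted p 0.00239, or 0.0185 without shOSGEP#2 replicate 3) and had 0.29 ± 0.20 with shOSGEP#1 (adjusted p 0.323).

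The members were also compared by what their sequences share. In RefSeq promoter windows of 300 bases (250 before and 50 after the start, build GRCm38.p6), 35 of the 44 had an entry. The motif GAAA, 2 bases of any kind, then GAAA, the core of the interferon-stimulated response element, was searched on both strands. It occurs in 17 of the 35 members (48.6%) and in 3.99% of the 27025 genes with windows (3.44% of 32851 windows). The motif TTC, 3 bases of any kind, then GAA, the core of the gamma-activated site, occurs in 8 of 35 (22.9%) and in 9.55% of genes (8.30% of windows). In members, 4 matches overlap a match of the other motif. No entry was found for Ccl5, Parp9, Usp18, Parp14, Oas2, Mx1, Mx2, Zbp1 and Rtp4.

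Of the 10 called members, 8 have a promoter entry, and 4 of these hold the first motif: Cxcl10, Gbp2, Ifit1 and Ifit3. Oasl2, Parp12, Xaf1 and Lgals3bp hold neither motif in the window, which says only that these letters are not there. The 4 promoters are shown because these members rose, Gbp2 with shOSGEP#2 and the others with shOSGEP#1, and that of Isg15 is shown beside them as the most abundant member of its list, which was not called. Each line gives 30 bases of the RefSeq window on the gene's own strand, 5′ to 3′, with the motif or its reverse complement in capitals. Cxcl10 is at chr5:92349083-92349112 on the minus strand, Gbp2 at chr3:142620594-142620623 on the plus strand, Ifit1 at chr19:34640785-34640814 on the plus strand, Ifit3 at chr19:34583397-34583426 on the plus strand and Isg15 at chr4:156200871-156200900 on the minus strand, all in GRCm38.p6.
Cxcl10: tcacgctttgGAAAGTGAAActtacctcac
Gbp2: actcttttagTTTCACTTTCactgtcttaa
Ifit1: TTTCACTTTCcagtctcagTTTCAGTTTCt
Ifit3: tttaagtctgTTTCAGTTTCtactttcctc
Isg15: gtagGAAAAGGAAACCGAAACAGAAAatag
Isg15 has 3 matches that run into each other, Ifit1 has 2 side by side, and Ifit3 has 2, of which 1 is shown. The same core thus occurs both in members that rose with shOSGEP#1 and in Isg15, whose shOSGEP#1 log2 fold change was 0.03.

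Because t6A lies next to the anticodon of transfer RNAs that read codons starting with A, the share of such codons was counted in the longest coding sequence of each gene. Its median was 29.6% over the 43 tested members (quartiles 26.0% and 30.9%) and 26.9% over 12653 tested genes (quartiles 23.5% and 29.8%). For the 10 called members the median was 30.8%. Cxcl10 had the highest share of the members with 42.9%, and Cmpk2 the lowest with 17.0%. Coding sequences of the members had a median GC content of 50.1%, beside 53.2% over all tested genes. These are descriptions of the genes and say nothing of their translation in these cells.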

How the data were processed

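RNA bound to FLAG-RIG-I was sequenced from 9 libraries, 3 per group. The authors deposited counts per gene, made with bcl2fastq, Trim Galore, STAR and Salmon per the submitters' processing notes, on GRCm39. Groups follow the labels. Counts were fitted with edgeR 4.0.16 in R 4.3.3 (filterByExpr, TMM, quasi-likelihood test, 1 coefficient per group, Benjamini-Hochberg over all genes tested, threshold 0.01) on 8 libraries; shOSGEP#2 replicate 2, with 568995 counts, was left out. Standard errors are the absolute log2 fold change over the square root of F. The test was tested on simulated data. Exon lengths are unions of GENCODE exons on GRCm38; promoters are from RefSeq. Python 3.11.15, numpy 2.4.6, pandas 2.3.3 and matplotlib 3.10.9 made the summaries.

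The members and lists were chosen with earlier results of these data known. Genes named are Osgep, Ddx58, members called in any comparison, the most abundant member of each list and the 6 pathway genes with the smallest p. The most abundant member is the one with the highest mean CPM over the 8 libraries fitted. Any other gene is said to be chosen after its values were seen, or is a member given in its list.

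Alternatives were RLE factors, library totals without TMM, DESeq2 1.42.0, no filter, a filter requiring at least 10 counts throughout, a looser threshold of 0.05, only the groups compared, all 9 libraries with edgeR and with DESeq2, a replicate block, and leaving out each library. For Osgep, Ddx58 and the pathway genes they were added after seeing the data. Replicate numbers were not treated as pairs. Deviations from group means had a mean correlation of 0.0809 (−0.00337 to 0.180) across genes between libraries of the same number and −0.0398 between others. Such deviations cancel out within each group, so the value between others is tied to the first and is not separate evidence. Genes are also not independent replicates. TMM-scaled sums were the alternative for summed levels, and CPM without length for the order of levels.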

Additional observations from a re-analysis of the deposited data

Results flagged for a closer look

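Between the hairpins, 9 of the genes named by the rule given with the processing differed by a direct test of shOSGEP#2 against shOSGEP#1. Genes named outside that rule, such as Col1a1 and Col1a2, are not counted here. Among the members the log2 fold change was −2.02 for Cxcl10, 2.53 for Mx1 and 1.04 for Parp12. With only the 2 hairpin groups fitted, Cxcl10 was not called (adjusted p 0.0195). Among the pathway genes it was −2.90 for Il10rb, 1.78 for Nlrc5, 1.95 for Dhx58, 0.90 for Helz2, 2.73 for Gca and −1.66 for Plscr1. Both hairpins target the same gene, and they leave Osgep at 2.15 ± 1.41 CPM (SD, n = 3) and 1.48 ± 1.98 CPM (SD, 2 libraries). Why their effects on these genes differ was not tested.

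The library left out of the fits, shOSGEP#2 replicate 2, held 6 members above the highest shCtr library: Parp12 at 708 CPM (111.8 in that control), Oas2 at 111 CPM (11.1), Gbp2 at 94.9 CPM (7.97), Cmpk2 at 98.4 CPM (85.3), Ccl5 at 45.7 CPM (25.5) and Nmi at 12.3 CPM (7.09). These rest on 403, 63, 54, 56, 26 and 7 counts. For Gbp2 alone of the 6 were replicates 1 and 3 of the group called above the controls. The cause of the high values was not tested.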

How the results depend on the processing

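Members called with shOSGEP#1 were 8 as reported (1232 of all genes), 8 with RLE factors (1256) and 8 without TMM (1254), 11 by DESeq2 (2405), 11 with no filter (1748 of 15710 tested), 9 with at least 10 counts throughout (1360 of 10965), 9 with the compared groups alone (1495) and 10 with the replicate block (1380). With adjusted p under 0.05 they were 15 (2797), with all 9 libraries 0 (edgeR) and 0 (DESeq2), and with 1 library left out 0 to 9. With shOSGEP#2, 3 (1217 of all genes) became 8 at 0.05 (2674), 5 by DESeq2 (2346), 0 with all 9 libraries in edgeR and 1 to 5 with 1 left out. Between the hairpins, 3 (1375 of all genes) became 12 at 0.05 (2952), 10 by DESeq2 (2556), 9 with no filter (1803 of 15710 tested), 7 with the replicate block (1393), 2 with only the hairpin groups fitted (737), 0 (edgeR) and 0 (DESeq2) with all 9 libraries, and 1 to 4 with 1 left out. The replicate block added calls of Gbp3 (adjusted p 0.00572) and Parp9 with shOSGEP#1, and of Ifit3 (0.00245), Ifit3b, Lgals3bp (0.00758) and Rtp4 between the hairpins. Isg20 and Rtp4 were called between the hairpins by DESeq2 (0.00105, 0.00330) and with no filter (0.00264, 0.00621), Isg20 also without shOSGEP#2 replicate 3 (0.00546), and Sp100 with shOSGEP#2 without its replicate 1 (0.00783). Looser thresholds call more by construction; the cause of the others was not tested.

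The member median with shOSGEP#1 ranged from 0.14 to 0.53 with 1 library left out. With shOSGEP#2 it was 0.42 without TMM, 0.24 with the replicate block and 0.23 to 0.45 with 1 left out. Its sign was reversed with all 9 libraries, −0.10 by edgeR and −0.12 by DESeq2, where the lower medians of all genes were −0.37 and −0.39. Between the hairpins it was 0.0029 without TMM, −0.40 and −0.48 with all 9 libraries (all genes −0.35 and −0.40), and −0.20 to 0.16 with 1 left out.

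With all 9 libraries, these of the members given with a value reversed against shCtr with shOSGEP#2, by edgeR and DESeq2: Cxcl10 (−0.23, −0.28), Ifit1 (−0.27, −0.32), Ifit3 (−0.13, −0.19), Xaf1 (−0.16, −0.19), Irf9 (−0.46, −0.52), Ifit2 (−0.40, −0.45), Gbp3 (−0.0018, −0.046), Rsad2 (−0.13, −0.19), Ifitm3 (−0.52, −0.58) and, by DESeq2, Isg15 (−0.022). Between the hairpins these were Oasl2 (−0.066, −0.16), Parp14 (−0.32, −0.41), Oas1a (−0.47, −0.54), Rsad2 (−0.46, −0.55) and, by DESeq2, Isg15 (−0.073) and Ddx58 (−0.035). Each of these genes had 0 counts in the shallow library. By edgeR, Usp18, Herc6, Dtx3l, Mx2, Samd9l and Ifi35 also changed sign with shOSGEP#2, and Irf1, Usp18, Dtx3l, Oas2, Mx2 and Ccl5 between the hairpins. With the replicate block, Irf9 with shOSGEP#2 was −0.012. None of these values was called in either fit; the cause was not tested.

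With 1 library left out, 0 to 8 of the tested members changed sign in a comparison. Of those run singly here, the ones that did ranged, against shCtr with shOSGEP#1, from −0.14 to 0.11 for Isg15 and −0.023 to 0.57 for Rsad2, both lowest without shOSGEP#1 replicate 3. With shOSGEP#2 the ranges were −0.30 to 0.67 for Cxcl10, −0.21 to 0.44 for Ifit2, −0.12 to 0.80 for Rsad2 and −0.052 to 0.22 for Ifitm3, all lowest without shOSGEP#2 replicate 3, and −0.53 to 0.51 for Irf9, lowest without shOSGEP#2 replicate 1. Between the hairpins they were −0.16 to 0.24 for Oas1a and −0.45 to 0.47 for Rsad2, lowest without shOSGEP#2 replicate 3, and −4.75 to 0.32 for Osgep, highest without shOSGEP#2 replicate 1. The cause was not tested.

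For the members named, the other comparisons across these settings numbered 424 of unchanged direction and call, 29 newly called and 28 no longer called, and with 1 library left out 349, 6 and 40. For Osgep, Ddx58 and the pathway genes they numbered 202, 10 and 24, and 182, 4 and 5. No called member changed sign in its comparison. Mean sums per group were 1769, 2590 and 2070 CPM with TMM scaling. Depth limits shOSGEP#2 most: the lone library left when replicate 1 or 3 is dropped is assumed to vary like the other groups.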
